A study of Mus musculus with 2 samples.

Results

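The genes Igfbp4, Nsg2, Tdrp, Actn1, Amigo2, Pdlim4, Trib2 and Ampd1 were examined in 2 sorted T cell populations labelled as from mouse lymph nodes. They were picked because their signal was far lower in invariant natural killer T (NKT) cells than in conventional CD4 T cells on these arrays. All 8 genes were on the deposited value table, with 10 probes of the 11155 that carry a gene symbol (11866 probes in all). Igfbp4 and Ampd1 had 2 probes each and the other genes 1. Because the same contrast chose the genes, the size of their differences is a description and was not tested.

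1 array was labelled as conventional CD4 T cells and 1 as type 1 invariant NKT cells, both labelled as from lymph nodes of female mice kept free of specific pathogens. They are called the CD4-labelled and the NKT-labelled array below. The labels name no treatment, strain, age or pooling of animals. Cells were isolated by magnetic or fluorescence sorting, and biotin-labelled cRNA was made from 0.55 µg of total RNA per sample. With 1 array per group no value has a replicate, and the number of arrays limits the precision. Signals are log2 values whose 2 columns share 1 distribution, as quantile normalisation leaves them, so a signal fixes a probe's rank among the 11866 probes, with rank 1 the brightest. The detection level of 7.83 is the lowest value with a detection p under 0.01 on the CD4-labelled array, and it is an estimate on the other array.

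Conventional CD4 T cells of a lymph node are mostly naive and recirculate at rest, whereas invariant NKT cells carry a restricted T cell receptor for lipids on CD1d and resemble effector cells. Several of the 8 genes are known mainly from other tissues. Alpha-actinin and its PDZ-LIM partners bundle and anchor actin filaments. IGF-binding proteins hold insulin-like growth factors away from their receptors, Tribbles proteins are pseudokinases that bring substrates to ubiquitin ligases, and AMP deaminases convert AMP to IMP in the purine nucleotide cycle.

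The deposited tables contradict each other for 1 sample, and some marker genes go against the labels. Signals of the NKT-labelled array in the value table did not follow the second column of the deposited non-normalized table (Spearman's rho 0.822 across probes). That column is assigned to the same sample. Against the first column, assigned to the other sample, their rho was 0.823. Signals of the CD4-labelled array, by contrast, followed the first column exactly (rho 1). The 2 non-normalized columns were nearly the same (Pearson's r 0.997 on the log2 scale across 25697 probes, 0 probes 2-fold apart). Probes are not independent replicates. Which table holds the signals of the invariant NKT sample was not settled, so the arrays are named by their labels only. Cd8b1, which encodes a chain of the CD8 co-receptor, had log2 signals of 15.60 and 9.33 on the CD4-labelled and NKT-labelled arrays. The Y-linked gene Eif2s3y, chosen after its value was seen, had a signal of 11.55 on the CD4-labelled array, with a difference of -2.55 to the other, in samples labelled as female. Hepatocyte transcripts on the NKT-labelled array go against its lymph node label. Of their 10 probes, 8 were 2-fold or more higher there with undetected signals raised to the detection level. The brightest of them, Serpina1b, had signals of 12.31 and 11.96 at its probes. The cause was not tested.

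All 10 probes were detected on the CD4-labelled array, at ranks from 254 to 3403, and all lay at ranks from 7115 to 11849 on the NKT-labelled array. Differences, always the NKT-labelled array minus the CD4-labelled array, ran from -5.89 to -3.32 with a median of -4.59, or -4.32 with undetected signals raised to the detection level. Over all named probes the median was -0.03, or -0.02 at that level. Every one of the 10 probes was 2-fold or more lower, as were 9.44% of all named probes. At 4-fold or more the count was again 10 of 10, against 1.27% of all named probes. Both counts of 10 hold with undetected signals raised to the detection level. As the genes were picked on this contrast, nothing is read from these counts. For 6 probes, those of Actn1, Nsg2, Pdlim4, Tdrp and Ampd1, the signal on the NKT-labelled array lay below the detection level, and the 4 probes of Igfbp4, Amigo2 and Trib2 lay at or above it. Among all 11155 named probes, 2242 lay below the detection level on that array.

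**Figure D1:**
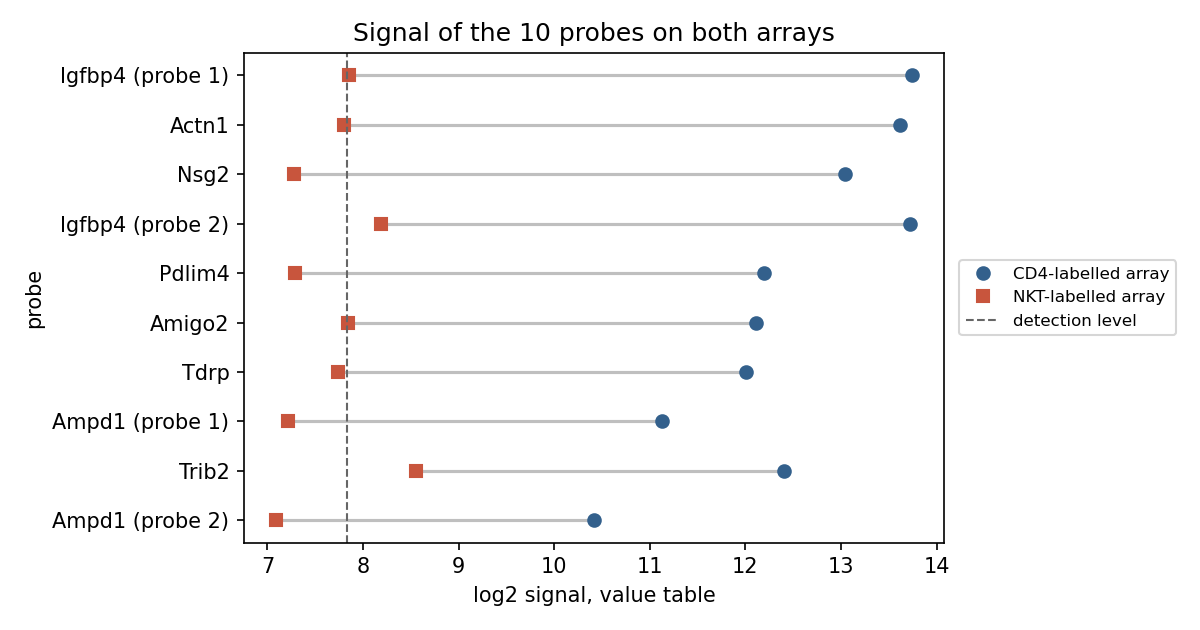
Log2 signal (horizontal axis) of each of the 10 probes (vertical axis) on the CD4-labelled array (circles) and the NKT-labelled array (squares), 1 array each, with no error bars because there are no replicates; the dashed line is the detection level of 7.83. The circles lie between 10.41 and 13.75 and the squares between 7.09 and 8.55, and 6 squares lie left of the line. The genes were picked for this fall, so nothing is read from the gap between circles and squares.

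The only measure of error in these arrays is the disagreement between probes of 1 gene. Over 2161 genes with 2 or more probes, the SD of the difference within a gene was 0.61 on the log2 scale, and it holds no spread between animals, sorts or arrays. Probes undetected on 1 or both arrays are included in it at their measured values. The differences of the 2 Igfbp4 probes had an SD of 0.25. Both Ampd1 probes were undetected on the NKT-labelled array, so their spread has no exact value, and the other 6 genes had no second probe.

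The cytoskeletal genes come first. Actn1 encodes alpha-actinin 1, which crosslinks actin filaments and ties them to integrin adhesions. Its probe had a log2 signal of 13.61 on the CD4-labelled array and 7.80 on the NKT-labelled array, which are rank 288 and rank 9632. The latter value is 0.04 under the detection level, so the signal was at least 55.0-fold lower. Pdlim4 encodes a protein with a PDZ and a LIM domain that binds alpha-actinin and actin stress fibres. Its signals were 12.19 and 7.29, rank 1053 against rank 11659, or at least 20.5-fold lower.

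Igfbp4 and Amigo2 encode proteins that act outside the cell or at its surface. Igfbp4 is a secreted protein that binds insulin-like growth factors and is cut by the protease Pappa. Its probe 1 (ILMN_2694955) had log2 signals of 13.75 and 7.86, a difference of -5.89. Probe 2 (ILMN_1258988) had 13.72 and 8.19, a difference of -5.53. Both were bright on the CD4-labelled array and just above the detection level in the other, by 0.02 and 0.36. The difference of probe 1 is the second lowest of all named probes, after a probe of Cd8b1. Amigo2 encodes a transmembrane adhesion protein with leucine-rich repeats and an immunoglobulin domain, first studied in neurons. Its signals were 12.11 and 7.84, a difference of -4.27 that ends 0.01 above the detection level.

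Nsg2 encodes a membrane protein of endosomes and vesicles in neurons, where it takes part in receptor traffic. Its log2 signals were 13.05 and 7.28, rank 499 against rank 11688, among the dimmest probes of the NKT-labelled array. The signal was at least 37.1-fold lower. Tdrp, the testis development related protein, is a nuclear protein studied in mouse spermatogenesis. Its signals were 12.00 and 7.74, at least 18.0-fold lower, and the lower value is 0.10 under the detection level.

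Trib2 and Ampd1 encode a signalling and a metabolic protein. Trib2 is a Tribbles pseudokinase that brings C/EBP factors to the ubiquitin ligase Cop1. Its log2 signals were 12.41 and 8.55, a difference of -3.85, and it stayed 0.72 above the detection level on the NKT-labelled array, the highest of the 10 probes over that level. Ampd1 is the AMP deaminase best known from skeletal muscle. Its probe 1 (ILMN_1237871) had signals of 11.13 and 7.21, at least 9.82-fold lower. Probe 2 (ILMN_2971142) had 10.41 and 7.09, at least 5.97-fold lower. Both Ampd1 probes were near the floor on the NKT-labelled array, at ranks 11771 and 11849 of 11866.

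The detection level sets which of the 8 genes count as undetected. On the NKT-labelled array, 4 of the 10 probes, those of Igfbp4 (probe 1), Actn1, Amigo2 and Tdrp, lay within 0.1 of it. At the level for a detection p under 0.05, which is 7.63, the probes below it were 4 instead of 6: Nsg2, Pdlim4 and both of Ampd1. Among the 3186 named probes at least as bright on the CD4-labelled array as the dimmest of the 10, those below 7.83 on the NKT-labelled array numbered 20 (0.628%), 6 of them from the genes described here. The genes were picked for this fall and also set the brightness limit, so nothing is read from these numbers.

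**Figure D2:**
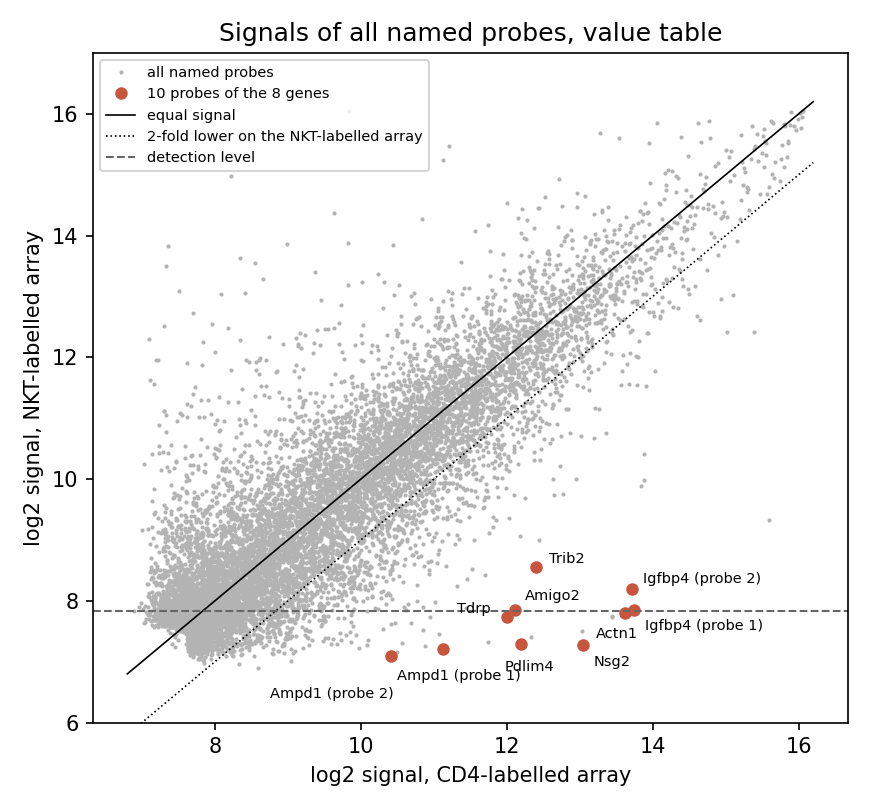
Log2 signal of each of the 11155 named probes on the CD4-labelled array (horizontal axis) and the NKT-labelled array (vertical axis), with the 10 probes in colour, the line of equal signal, the line of 2-fold lower signal and the detection level of 7.83. The 10 probes, whose genes were picked for this fall, lie far under the 2-fold line at the lower right, where few other named probes lie.

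The deposited non-normalized intensities gave a different picture for the same probes. All 10 had a detection p under 0.01 in the second column too, the one assigned to the invariant NKT sample. The 2 columns were nearly the same, and all 10 were detected in the first, so nothing about these genes is read from this count. For Igfbp4 probe 1 the intensities were 12810 in the first column and 12582 in the second. For Actn1 they were 11794 and 11424, and for Nsg2 7865 and 7311. The log2 ratio of the second to the first column ran from -0.15 (Igfbp4 probe 2) to 0.03 (Tdrp) over the 10 probes, with 8 below 0 and 2 above. Their median was -0.04, against -0.02 over all named probes. After background correction and quantile normalisation of that table with neqc, 0 of the 10 probes were 2-fold or more lower, as were 0.0269% of all named probes, so every difference described above rests on the value column of the NKT-labelled array.

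**Figure D3:**
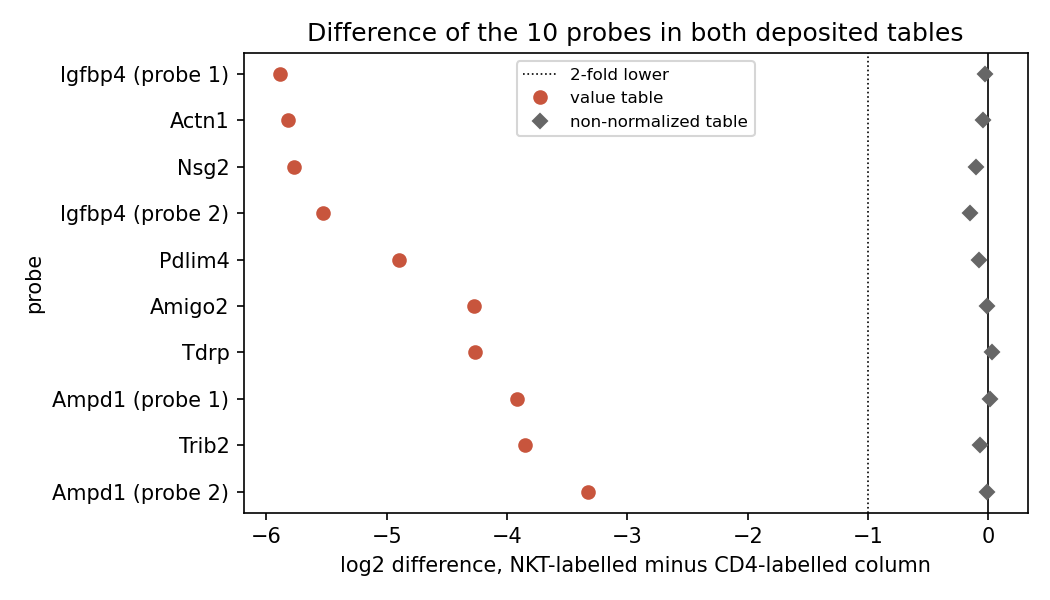
Log2 difference (horizontal axis) of each of the 10 probes (vertical axis) in the value table (circles) and in the non-normalized table (diamonds, log2 ratio of the second to the first column), 1 array per group; the dotted line marks 2-fold lower. Circles lie between -5.89 and -3.32, whereas diamonds lie between -0.15 and 0.03.

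Relatives of the 8 genes were then followed in the value table, by counting the probes of family and pathway lists that were 2-fold or more lower (9.44% of all named probes) or higher (9.67%). With undetected signals raised to the detection level these shares were 8.55% and 8.83%, and the counts of the 8 lists stayed as given. In the list of alpha-actinins and adhesion proteins, 1 of 17 probes was lower and 6 were higher, with a median of 0.55 (0.56 at the detection level). Actn4, the other alpha-actinin of non-muscle cells, was higher by 2.12 and 2.28 at 2 probes and at least 2.47-fold at the third, opposite in sign to Actn1. The muscle form Actn2 differed by -0.25, and Actn3 was below the detection level on both arrays. For Itgb1, the integrin beta 1 gene, 1 of 2 probes was at least 2.86-fold higher, and the focal adhesion adaptor Pxn was higher by 1.53 at 1 of 2 probes. Probes of the alpha-actinins thus lay on both sides of 0.

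Among PDZ-LIM and LIM proteins 2 of 13 probes were lower and 1 was higher, with a median of 0.46 (0.28 at the detection level). Pdlim1, which like Pdlim4 binds alpha-actinin, had log2 signals of 13.88 and 10.41, a difference of -3.47, but stayed well above the detection level. Limd2, a small LIM protein, differed by -1.48. Pdlim2, a PDZ-LIM ubiquitin ligase of immune cells, had 4 probes between 0.26 and 1.28, and Pdlim7 differed by 0.82. Pdlim5 differed by -0.24 at the probe detected on both arrays. In the leucine-rich repeat list 1 of 5 probes was lower, Lrig1 at -1.33, and 1 was higher, Lrig3 at least 2.53-fold, with a median of -0.30 (-0.16 at the detection level). The Amigo2 relatives Amigo1 and Amigo3 lay near or below the detection level, with signals of 7.89 and 7.36 for Amigo1 and 7.61 and 7.79 for Amigo3.

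The insulin-like growth factor list held 7 probes of 6 genes on the value table and no IGF-binding protein other than Igfbp4. Of these 1 probe was lower and 2 were higher, with a median of 0.34 (0.31 at the detection level). Igf2, the growth factor itself, was below the detection level on the CD4-labelled array and at 11.88 in the other, at least 16.5-fold higher. Irs2, an adaptor of the insulin and IGF receptors, was higher by 2.61, and Igf2r, which clears Igf2 from the surface, differed by -1.35 and -0.87 at its 2 probes. The highest differences of this list were therefore opposite in sign to Igfbp4. Of 10 probes for hepatocyte transcripts 8 were also at least 2-fold higher on the NKT-labelled array at the detection level, and their part in the values of Igf2 was not tested.

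In the list around the Tribbles proteins 0 of 6 probes were lower and 1 was higher, with a median of -0.40 (-0.24 at the detection level). That probe was Cebpb, a C/EBP factor of the family that Tribbles proteins help to degrade, at 11.74 and 14.17. The same probe is also counted in the list of myeloid markers, and the part of such cells in its value was not tested. The relative Trib3 was below the detection level on both arrays. In the list of endosomal sorting proteins, drawn up around Nsg2, 2 of 14 probes were lower and 0 were higher, with a median of -0.12, the same at the detection level. These were Snx1, a sorting nexin, at least 2.43-fold lower, and 1 of the 3 probes of the retromer subunit Vps29 at -1.20, whose other probes differed by 0.36 and 0.66.

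Purine nucleotide enzymes lay on both sides, with 5 of 27 probes lower, 6 higher and a median of 0.03, the same at the detection level. Ampd2, the AMP deaminase of non-muscle cells, differed by 0.37. Adssl1, which makes the adenylosuccinate that feeds AMP synthesis in muscle, was higher at 2 of 3 probes, at least 2.08-fold and 5.03-fold. The nucleotidase Nt5c3b was higher by 1.68 and 2.71, and the nucleotidase Nt5c differed by -1.92. Of the 2 Hprt probes detected on both arrays, for the salvage enzyme of hypoxanthine and guanine, 1 differed by -1.63 and the other, the brighter, by 0.03.

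Naive T cell genes had 8 of 14 probes lower and 1 higher, with a median of -1.50, the same at the detection level. The list was drawn up with results of these arrays known, so its direction is no independent evidence. Ccr7, which guides naive T cells into lymph nodes, had signals of 12.33 and 7.41, at least 22.6-fold lower. Il6st encodes gp130, the receptor subunit shared by IL-6 family cytokines, and was at least 7.20-fold lower, and Dapl1 at least 6.66-fold. Klf2, a transcription factor of resting T cells, differed by -2.97.

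**Figure D4:**
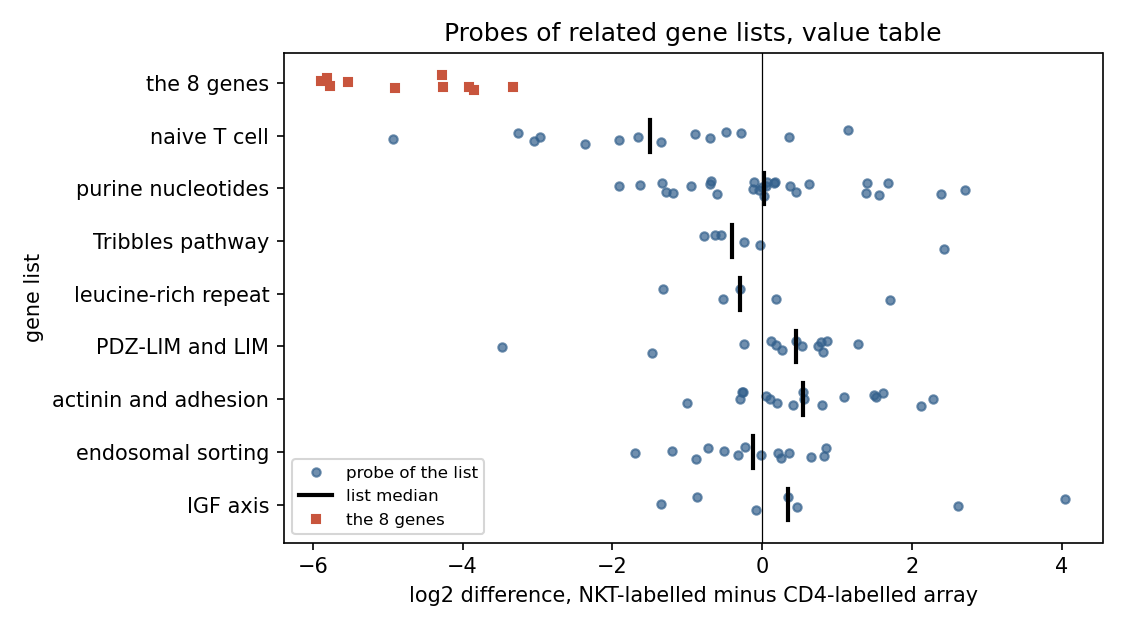
Log2 difference (horizontal axis, NKT-labelled minus CD4-labelled array) of each probe of 8 gene lists (circles, one row per list, spread vertically only for legibility) and of the 8 genes (squares), with list medians as bars. Medians of the 8 lists lie between -1.50 and 0.55, and single probes of the lists, such as those of Ccr7 and Pdlim1, reach the range of the squares, whose low values come from how the genes were picked.

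The probes most like each gene were found by the distance between probes in the plane of both log2 signals, over 2 samples. A probe's level also depends on the probe itself, so this likeness is a description. Igfbp4 (probe 1) and Actn1 were nearest to each other at a distance of 0.14, and Itgae, the integrin chain CD103, came next for both. Tdrp and Amigo2 were nearest to each other at 0.15, followed by Ccr7 for both. Nsg2 was nearest to a probe of Cd8b1 at 0.22, followed by a probe of Itgae at 0.60. Pdlim4 was nearest to Ccr7 at 0.18, followed by Ppic at 0.46. Ampd1 was nearest to Gpr146 at 0.25 and to a probe of Itgae at 0.26. Trib2 had the most distant nearest probe, that of Fam169b at 0.44, followed by Tagap at 0.56.

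Markers of other cells were read beside these differences, and their part in them was not tested. The CD8 T cell list had 10 of 12 probes 2-fold or more lower, or 7 of 12 at the detection level, and 0 higher. All 7 were probes of Cd8b1 and Itgae, so that count comes from these genes alone. Eomes, Crtam and a further Itgae probe passed 2-fold by measured values only, and Prf1 differed by -0.24 and 0.28 at its probes. The summed signal of the list was 16.46 on the CD4-labelled array and 12.53 in the other on the log2 scale. Fewer cells of a type and less RNA per cell cannot be told apart in such sorted bulk samples. T cell identity genes, by contrast, had a median of 0.10 over 20 probes, with 1 lower and 3 higher, and sums of 17.78 and 17.87. Their defining genes Cd3d, Cd3e and Cd3g lay within -0.16 to 0.30.

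Of the invariant NKT and NK list 11 of 12 probes were higher and 0 lower, with sums of 13.60 and 16.61. Hepatocyte transcripts were below the detection level at all 10 probes on the CD4-labelled array and at 1 probe in the other, with 9 of 10 higher by measured values and 8 at the detection level. The hepatocyte sums were 10.55 and 14.14. Red cell and platelet genes had 3 of 4 probes higher, with sums of 10.49 and 16.19. Of these genes, Hba-a1 had log2 signals of 9.84 and 16.04. At the detection level, probes lower and higher numbered 1 and 3 of 9 for myeloid genes, 2 and 0 of 6 for regulatory T cell genes, 1 and 0 of 5 for B cell genes, 2 and 0 of 2 for stroma and endothelium (both of Pecam1), and 0 and 0 of 3 for CD4 T cell genes. Cd4 itself had a signal of 9.61 on the CD4-labelled array and a difference of -0.61. The other probes of that list, of Zbtb7b and Cd40lg, had signals of 7.79 and 7.66 on the CD4-labelled array, below the detection level.

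Position and promoter sequence are features that the choice of genes did not use. The nearest protein-coding gene on each side of each of the 8 genes was taken from RefSeq annotation of GRCm38.p6, where all 10 probes matched by gene identifier. Of these 16 neighbours 9 were on the value table, with 10 probes. None of the 10 was 2-fold or more lower or higher, against 9.44% and 9.67% of all named probes. So few probes do not set the neighbours apart from these shares. Nras and Dennd2c, beside Ampd1, differed by -0.25 and -0.72, and Fbxo25 and Erich1, beside Tdrp, by -0.59 and 0.40. Beside Amigo2, Slc38a4 differed by -0.54 and Rpap3 by 0.11 and 0.66 at its probes. Dennd2c and Slc38a4 lay below the detection level on the NKT-labelled array. Top2a beside Igfbp4 differed by 0.89, Dcaf5 beside Actn1 by 0.55 and Lpin1 beside Trib2 by 0.37.

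RefSeq promoter windows of GRCm38.p6, from 250 bases before to 50 bases after a start, were at hand for 6 of the 8 genes, with 2 starts for Nsg2. Promoters of Tdrp and Ampd1 were not analysed here. The windows of Amigo2, Pdlim4, Igfbp4, Trib2 and Actn1 had GC contents of 83.3%, 71.7%, 71.3%, 71.0% and 68.3%, against a median of 52.7% over 32851 mouse windows. The windows of Nsg2 had 47.0% and 56.0%, on either side of that median. The bases upstream of Amigo2, Pdlim4 and Actn1 are shown because these windows reach beyond the annotated gene. The ratio of observed to expected CG pairs was 1.09 for Trib2, 0.88 for Amigo2, 0.85 for Pdlim4, 0.72 for Igfbp4, 0.69 for Actn1 and 0.60 and 0.48 for Nsg2, against a median of 0.38 over all windows. Only bases outside the gene's annotated span are printed, on the minus strand, 5′ to 3′ towards the start, with GC boxes (GGGCGG or its reverse complement CCGCCC) in capitals. They lie at chr15:97247288-97247537 for Amigo2, chr11:54069033-54069267 for Pdlim4 and chr12:80260421-80260613 for Actn1.
Amigo2: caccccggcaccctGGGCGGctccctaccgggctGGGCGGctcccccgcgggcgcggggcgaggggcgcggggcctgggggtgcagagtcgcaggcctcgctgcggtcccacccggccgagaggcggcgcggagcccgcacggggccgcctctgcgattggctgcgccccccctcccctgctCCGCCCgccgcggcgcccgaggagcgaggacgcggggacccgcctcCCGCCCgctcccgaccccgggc
Pdlim4: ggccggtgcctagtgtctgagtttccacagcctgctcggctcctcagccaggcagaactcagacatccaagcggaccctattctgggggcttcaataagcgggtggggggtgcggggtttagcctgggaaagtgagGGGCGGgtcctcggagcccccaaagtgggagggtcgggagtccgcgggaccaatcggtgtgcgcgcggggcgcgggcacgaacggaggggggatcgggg
Actn1: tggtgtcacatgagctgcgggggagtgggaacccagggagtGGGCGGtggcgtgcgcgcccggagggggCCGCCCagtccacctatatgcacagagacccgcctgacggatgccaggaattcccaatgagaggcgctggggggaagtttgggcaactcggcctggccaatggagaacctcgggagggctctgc

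The printed bases hold 4 GC boxes for Amigo2, 1 for Pdlim4 and 2 for Actn1. Motifs were searched on both strands of the full 300-base windows by exact letters. The GC box was in the windows of Actn1, Amigo2, Pdlim4 and Trib2, which is 4 of 7 windows, and in 35.7% of all windows. CCAAT was also in 4 of 7 windows (37.4% of all), and CACCC, a core bound by KLF factors, in 4 of 7 (57.5% of all). TATAAA was in the window of Igfbp4 alone among the 7 (13.6% of all). CTTTGA for TCF and LEF factors, GTAAACA for FOXO factors and TGTGGT for RUNX factors were in 0 of the 7. Of all 32851 windows, 5257, 1199 and 5506 held them, so most windows lacked each of these motifs. With only 7 windows, a count of 0 does not set these genes apart from all windows. A match is only a match of letters, and no match says only that these letters are not in these windows.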

How the data were processed

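RNA of 1 sample of conventional CD4 T cells and 1 of type 1 invariant NKT cells was hybridised to Illumina mouse bead arrays. GenomeStudio 2009.2 is named in the submitters' processing notes. The authors deposited a table of non-normalized probe intensity values, each column followed by a detection p-value per the file headers, and a value table of log2 signals. No source used here states how the deposited log2 values were normalised. The sorted value columns were equal within 0.00025, as quantile normalisation leaves them. Probe symbols came from the platform annotation.

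Each probe was compared on its own, and probes were called at 2-fold or more. With 1 array per group no p-value between groups was computed. A fold against a signal under the detection level is a bound taken at that level. A median at the detection level sets such signals to it and leaves out probes undetected on both arrays. Genes named in the text were every member, its relatives on the table and up to 4 further genes per list with the largest measured differences. The 2 probes nearest each member and its genomic neighbours on the table were named too. Of the marker lists only some genes are named. The members and lists were chosen with earlier results of these data known. The counting steps were tested on simulated data. Alternatives were the non-normalized table processed with neqc of limma 3.58.1 in R 4.3.3 (offset 16), background subtraction (floor 16), centring on T cell identity genes, a detection p under 0.05 and a 4-fold threshold.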

Additional observations from a re-analysis of the deposited data

Results flagged for a closer look

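All 10 probes of the 8 genes had a detection p under 0.01 in the second column of the non-normalized table, although the value table gave 6 of them a signal below the detection level on the NKT-labelled array. The signal drew attention because that column stands outside the main measurement. All 10 probes were also detected in the first column, which is nearly the same as the second (Pearson's r 0.997). Nothing about these genes is therefore read from this count. The cause of the conflict was not tested.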

How the results depend on the processing

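The genes were picked for falls far beyond 2-fold, so their count of 10 in the value table could hardly change under settings that keep that table. It was also 10 with background subtracted, with centring on T cell identity genes (which moves all probes alike), with a detection p under 0.05 and at 4-fold, and none of these checks the value table. With the non-normalized table and neqc the count was 0. For all named probes the count of 1053 became 3 with that table, 2383 with background subtracted and 142 at 4-fold; the last follows from the stricter threshold. With background subtracted the 10 differences were larger in size, from -9.01 to -4.88, and with centring they ran from -5.99 to -3.42. With neqc the sign turned for 6 probes: Igfbp4 probe 1 (0.0342), Actn1 (0.0305), Amigo2 (0.0458), Tdrp (0.0843) and Ampd1 (0.0547 and 0.0199). The other 4 lay between -0.09 and -0.03. The cause was not tested. No paired analysis was possible because each group holds 1 sample, and for the same reason no library could be left out. Signal over background limits the values on the NKT-labelled array, where all 10 probes lay within 0.75 of the detection level.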
